A study of Mus musculus with 10 samples.

Results

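Replication histone genes encode the bulk histones that package newly made DNA. In mouse they are named Hist1 to Hist4 after the cluster they sit in, and by the protein they encode, linker histone H1 or core histone H2A, H2B, H3 or H4. They were followed here in the livers of 10 mice carrying lung tumours. Members were chosen by name, as every protein-coding gene whose GENCODE M21 symbol begins with Hist1h, Hist2h, Hist3h or Hist4h followed by 1, 2a, 2b, 3 or 4. The name pattern found 67 protein-coding genes, of which 64 had a row among the 43629 genes of the count table. The remaining 3, Hist1h2bh, Hist1h2bm and Hist2h2bb, were not analysed here. A member was called detected when it had 10 or more counts in at least 5 livers, and that step used the counts themselves.

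All livers came from male mice of a genetically engineered lung tumour model, Lkb1 flox/flox with a second engineered allele, backcrossed to FVB. Tumours were induced at 12 to 20 weeks of age by giving adenovirus CMV-Cre through the nose, so both groups carried the same alleles and had received the same virus. The CMV promoter is active in many cell types, so Cre was not restricted to one type of infected cell. The 5 CACS mice (cancer anorexia-cachexia syndrome) had lost more than 15% of their peak body weight, and the labels gave weight changes of -29% to -33%. The 5 NCACS mice had not passed that limit and had changed by -3% to -14%. Mice without tumours were not analysed here.

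Most messenger RNAs end in a poly(A) tail. Replication histone mRNAs usually do not: they are cleaved just after a short stem-loop, which the stem-loop binding protein Slbp holds through processing, export, translation and decay. Their levels rise in S phase and drop when DNA synthesis ends. Some of these genes also give transcripts that run past the stem-loop to a poly(A) site, and such transcripts are known from differentiated cells that rarely divide. The libraries were made with a kit that selects mRNA by its poly(A) tail, so a count here is a read from a polyadenylated transcript or from RNA carried through the selection, and the total histone mRNA of these livers was not measured.

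The 16 letters of the stem-loop are the feature that sets this family apart, and they are shown in capitals below, with the bases either side in lower case, for the 6 detected members that had them and for 2 undetected members. All are RNA-sense DNA letters, 5′ to 3′, from GENCODE M21 transcripts on GRCm38.
Hist1h1c, chr13:23739507-23739532, plus strand: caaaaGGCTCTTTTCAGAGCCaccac
Hist3h2a, chr11:58955167-58955192, plus strand: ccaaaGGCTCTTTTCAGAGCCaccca
Hist1h2be, chr13:23585526-23585551, minus strand: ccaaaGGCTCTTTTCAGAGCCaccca
Hist2h3c2, chr3:96238480-96238505, minus strand: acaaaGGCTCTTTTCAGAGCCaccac
Hist1h4i, chr13:22040961-22040986, minus strand: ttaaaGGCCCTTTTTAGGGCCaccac
Hist2h4, chr3:96262934-96262959, minus strand: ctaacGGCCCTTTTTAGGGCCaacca
Hist1h4h, not detected, chr13:23531453-23531478, plus strand: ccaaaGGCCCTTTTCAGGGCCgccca
Hist1h2ap, at 0 in every liver, chr13:21833026-21833049, minus strand: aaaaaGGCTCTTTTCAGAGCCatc
The first and last 6 capitals pair to form the stem and the 4 between them form the loop. The annotated transcript of Hist1h2ap stopped 3 bases after the last capital, and that of Hist1h4h 46 bases after it. In Hist1h1c and Hist1h4i the annotated transcript went on for 840 and 330 bases.

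Few members were detected. With 31459179 to 40746178 counts in each library, 8 of the 64 members passed the detection rule: Hist1h1c, Hist3h2a, Hist1h2bc, Hist2h2be, Hist1h2be, Hist2h3c2, Hist1h4i and Hist2h4. They comprised 1 of 6 H1 genes, 1 of 18 H2A genes, 3 of 15 H2B genes, 1 of 12 H3 genes and 2 of 13 H4 genes. By cluster, 4 of 52 members of Hist1 on chromosome 13 were detected, 3 of 9 of Hist2 on chromosome 3, 1 of 2 of Hist3 on chromosome 11 and 0 of 1 of Hist4 on chromosome 6. Of the other 56 members, 23 were at 0 in every liver, which allows up to 3 counts, or 0.0736 to 0.0954 counts per 1000000 (CPM), in a library. The remaining 33 had some reads, and 53 of the 56 never rose above 4 counts in a liver.

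The detected members held 98.7% of all counts assigned to the family. The H2B gene Hist1h2bc alone held 54.9%, and the H1 gene Hist1h1c, which encodes histone H1.2, held 30.4%. Hist2h2be followed with 5.89%, Hist1h4i with 2.77%, Hist3h2a with 1.82%, Hist2h3c2 with 1.58%, Hist2h4 with 0.806% and Hist1h2be with 0.554%. Close to the threshold, Hist1h2be reached 10 counts in 6 livers and Hist2h4 in 8, whereas Hist1h4h, the first gene outside, did so in 2. Hist1h4h had 4, 7, 9, 11 and 14 counts in the NCACS livers and 3, 7, 2, 1 and 7 in the CACS livers.

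**Figure D1:**
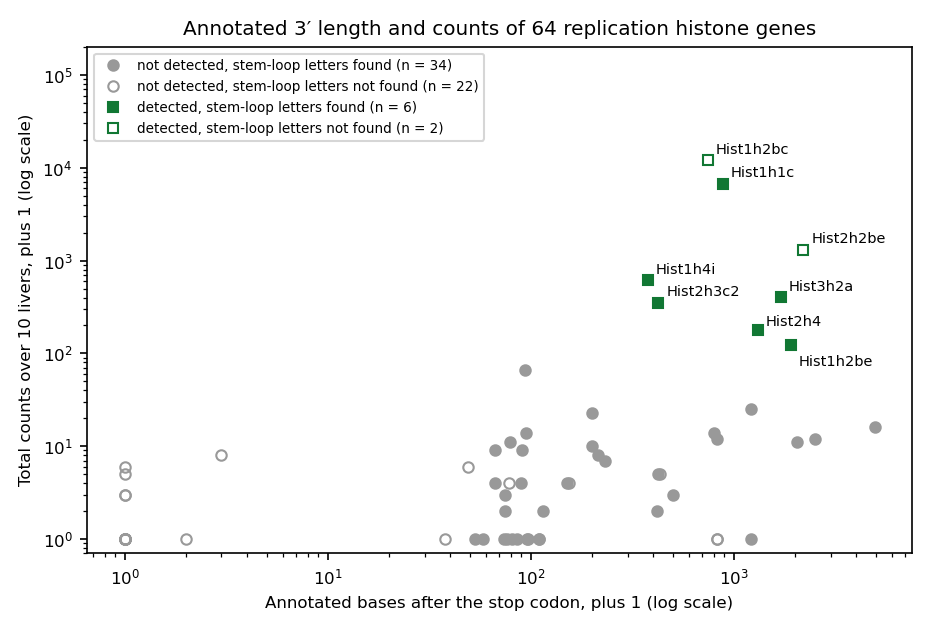
Each point is 1 of the 64 replication histone genes, with the annotated bases after its stop codon on the horizontal axis and its counts summed over the 10 livers on the vertical axis, both plus 1 and on log scales. Green squares are the 8 detected members, all with 376 or more annotated bases after the stop codon; grey circles are the 56 others, and filled symbols have the stem-loop letters in their transcript.

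The annotated 3′ ends of the members differed in a way that the name rule did not use. The stem-loop letters, with any base allowed at the third, the fourth, the tenth and the thirteenth, were searched on the transcript strand within 500 bases of the stop codon. They were found in 44 of 21677 protein-coding genes (0.203%), and 40 of those were members. Among the 8 detected members, 6 had the letters and all 6 were annotated to run more than 100 bases past them. Among the 56 others, 34 had the letters, 14 ran more than 100 bases past them, and 17 ended within 50 bases. The bases after the stop codon ranged from 376 to 2192 with a median of 1095.5 in the detected members, against a median of 87 in the others. A poly(A) signal (AATAAA or ATTAAA) lay after the stop codon in 7 of 8 detected members and in 14 of 56 others. Signals were counted at any distance from the annotated end, and the share over other genes was not counted. The only signal of Hist1h2bc began 447 bases before its annotated end. The annotation is itself built from sequenced transcripts, and 12 undetected members have no annotated base after the stop codon, so lengths and counts are not independent measures.

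A long annotated end did not always go with reads. There were 13 undetected members with more than 300 annotated bases after the stop codon, and their totals over 10 livers ran from 0 to 24 counts. Hist1h1d, an H1 gene with 4931 annotated bases after the stop codon and 12 poly(A) signals there, had 15 counts in all. Of its windows of 100 bases, 0.792% also occurred in another gene. Hist2h3c1, Hist1h2bq and Hist1h2br were at 0, but 100% or 99.8% of their windows also occurred in another gene, so their lack of counts is uncertain.

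The most abundant member had an unusual structure. Hist1h2bc spans chr13:23684199-23692908 on the plus strand in 2 exons. Exon 1, at 23684199 to 23684621, holds the whole coding sequence, and exon 2, at 23692176 to 23692908, holds 733 of the 742 bases that follow the stop codon. Its annotated transcript did not contain the stem-loop letters. Hist2h2be (chr3:96221119-96223738, plus strand) has a single exon with 2192 bases after the stop codon and 3 poly(A) signals. The letters were not found in the first 1000 bases after its stop codon, and the rest was not searched. Hist1h2bc and Hist2h2be both encode H2B. Counts were given per gene, so reads from each exon could not be separated.

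Both H2B genes start close to an H2A gene on the opposite strand, and in each pair the counts were on one side. Hist1h2bc had 760 to 1893 counts per liver, and Hist1h2ac, whose start lies 251 bases away, had 0 to 2. Hist2h2be had 82 to 174 counts, and Hist2h2ac, 239 bases away, had 0 to 4. The third such pair was reversed: the H2A gene Hist3h2a had 26 to 62 counts, and Hist3h2bb-ps, an H2B pseudogene 173 bases away, had 0 to 3. Hist1h2ac shares exon bases with Gm24991 on its own strand and with Gm44350 on the opposite strand. Hist2h2ac shares them with Gm44492 on the opposite strand, whereas Hist1h2bc and Hist2h2be share none with another gene. The HTSeq strand setting was not given, so the low counts of Hist1h2ac and Hist2h2ac are uncertain.

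Replication histone genes are near copies of one another, and reads that fit several genes equally well may not be assigned to any. The share of 100-base windows of a member's transcripts that also occurred in another gene's transcripts had a median of 12.5% in the detected members, 41.5% in the undetected ones and 80.7% in the 23 members at 0. More than 50% of windows were shared in 18 of those 23 members. The share was 0% for Hist2h2be and Hist2h4, 5.07% for Hist1h1c, 15.1% for Hist1h4i, 25.4% for Hist1h2bc and 61.6% for Hist2h3c2. Lack of a count for the near-identical members is therefore uncertain, and so is the level of Hist2h3c2. Hist1h2be shares exon bases on its strand with Hist1h1e, and Hist3h2a with Trim17, whose counts were 2 to 18 per liver, so the counts of these 2 members are also uncertain. Every H2A member shares exon bases with a gene on the opposite strand. Whether this lowered the H2A counts was not tested.

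In CACS livers Hist1h2bc and Hist1h4i fell, and none of the 8 tested members passed the test as higher. Hist1h2bc was at 49.99% of its NCACS level and Hist1h4i, an H4 gene, at 35.5%. The 8 detected members were exactly those that passed the expression filter, and the quasi-likelihood model of edgeR covered 14143 genes. Of the 8, 2 had a Benjamini-Hochberg adjusted p under 0.05, against 3.80% of all genes tested (1.92% lower in CACS, 1.89% higher). The other 6 did not pass, at an unadjusted p under 0.05 either, which does not show that they were unchanged. The fold changes had a median of -0.64 on the log2 scale over the 8 members and of -0.01 over all genes, with 7 members below 0 against 50.6% of all genes. The detected genes of a class are different genes and not replicates of it. Levels are given as CPM with library sizes corrected for composition by TMM (trimmed mean of M-values).

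**Figure D2:**
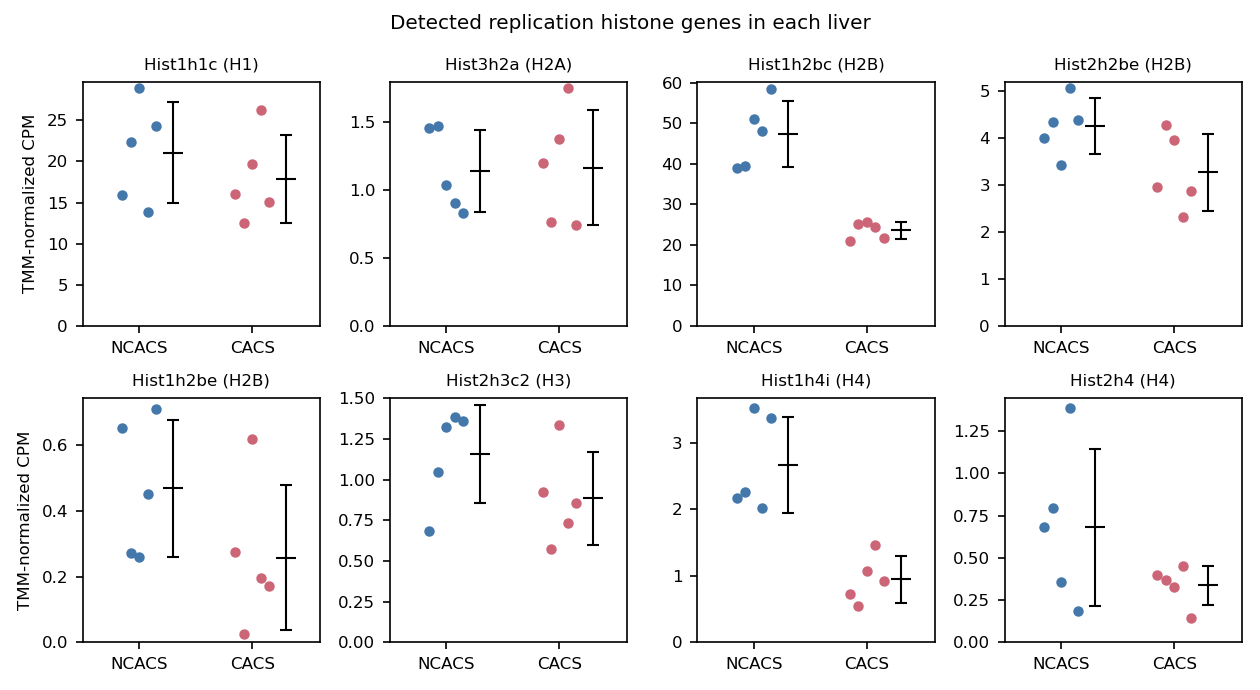
TMM-normalized CPM (vertical axes, from 0) of the 8 detected members in each of the 5 NCACS livers (blue) and the 5 CACS livers (red), with the mean and SD of each group in black. The groups are apart for Hist1h2bc and Hist1h4i and overlap for the other 6.

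Hist1h2bc had the highest level of the family. The 5 NCACS livers had 39.1, 39.6, 51.0, 48.1 and 58.4 TMM-normalized CPM, and the 5 CACS livers 21.05, 25.2, 25.7, 24.3 and 21.7. Every CACS liver was below every NCACS liver. The means were 47.2 ± 8.15 CPM in NCACS and 23.6 ± 2.09 CPM in CACS (SD, n = 5 each). The log2 fold change was -1.0 (SE 0.122, edgeR adjusted p = 0.00504), which ranked 10 by p among all genes tested. The call held in all 10 fits that left out 1 liver, with adjusted p from 0.00700 to 0.0219.

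Hist1h4i lies at chr13:22040636-22041362 on the minus strand in a single exon and encodes H4. Its NCACS values were 2.16, 2.26, 3.52, 2.02 and 3.36 CPM, and its CACS values 0.724, 0.550, 1.08, 1.46 and 0.916 CPM. The groups did not overlap, and CACS replicate 19 was the highest of its group. The fall was 1.49 on the log2 scale (-1.49, SE 0.283, edgeR adjusted p = 0.0222), from 2.67 ± 0.717 to 0.946 ± 0.351 CPM (SD, n = 5 each). Raw counts were 67 to 109 in NCACS and 21 to 52 in CACS. Without CACS replicate 16 the adjusted p was 0.0537 with a fold change of -1.41. Non-overlap in the lower direction was seen for 3.13% of all genes tested (3.95% in the higher direction, 7.07% in either) and for 2 of the 8 members.

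Within each of these 2 classes the detected members gave different estimates. The second H4 gene, Hist2h4, ranged from 0.185 to 1.38 CPM in NCACS and from 0.143 to 0.450 in CACS, and its groups overlapped. Its log2 fold change was -1.01 with a 95% interval from -2.07 to 0.05 (edgeR adjusted p = 0.254), an interval that includes the estimate for Hist1h4i. Hist2h2be, the second H2B gene, ranged from 3.43 to 5.06 CPM in NCACS and from 2.31 to 4.27 in CACS, with a log2 fold change of -0.38 (interval -0.79 to 0.04, edgeR adjusted p = 0.275). The interval of Hist2h2be did not include the estimate for Hist1h2bc, but the difference between the genes was not tested. Hist1h2be, the third H2B gene and the scarcest detected member, had 8 to 23 counts in NCACS and 1 to 19 in CACS, and a log2 fold change of -0.88 (interval -2.11 to 0.34, edgeR adjusted p = 0.388).

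**Figure D3:**
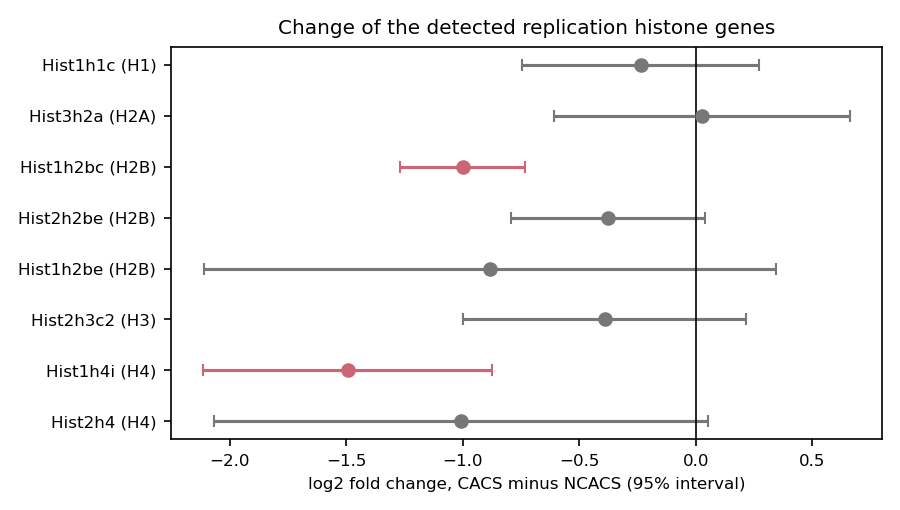
Log2 fold change of CACS over NCACS (horizontal axis) with its 95% interval from edgeR for each detected member, grouped by histone class. The intervals of Hist1h2bc and Hist1h4i (red, adjusted p under 0.05) lie below 0, and the 6 grey intervals include 0.

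The linker histone gene did not pass the test. Hist1h1c (chr13:23738808-23740367, plus strand, 1 exon) had 15.9, 22.3, 28.9, 13.9 and 24.3 CPM in NCACS livers and 15.98, 12.5, 19.7, 26.2 and 15.02 CPM in CACS livers. Values spread about as widely within each group as across both. The means were 21.1 ± 6.15 and 17.9 ± 5.35 CPM (SD, n = 5 each), and the log2 fold change of -0.24 had an interval from -0.74 to 0.27 (edgeR adjusted p = 0.593). A fall as large as that of Hist1h2bc lies outside that interval.

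Hist3h2a, the only H2A gene detected, had 1.45, 1.47, 1.03, 0.903 and 0.833 CPM in NCACS and 1.20, 0.760, 1.37, 1.75 and 0.744 CPM in CACS. The groups overlapped fully, with a log2 fold change of 0.03 (interval -0.61 to 0.66, edgeR adjusted p = 0.970). Its sign turned in 5 of the fits that left out 1 liver, and with limma-voom. The H3 gene Hist2h3c2 had 0.682, 1.04, 1.32, 1.38 and 1.36 CPM in NCACS and 0.924, 0.577, 1.34, 0.732 and 0.858 CPM in CACS. Its groups overlapped, and the log2 fold change was -0.39 (interval -0.997 to 0.22, edgeR adjusted p = 0.445).

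Divided by exon length, so that genes can be compared with each other, the mean level over 10 livers was 30.6 CPM per kb for Hist1h2bc, 12.5 for Hist1h1c, 2.48 for Hist1h4i, 1.43 for Hist2h2be, 1.0 for Hist2h3c2, 0.536 for Hist3h2a, 0.312 for Hist2h4 and 0.0818 for Hist1h2be. Exon length counted every annotated exon base of a gene. For Hist1h2be it was 4446 bases, against 2480 and 2506 in its protein-coding transcripts. Shared windows were not corrected for. In NCACS livers Hist1h2bc (40.9 ± 7.05 CPM per kb, SD, n = 5) and Hist1h1c (13.5 ± 3.94) were apart by more than their spread. In CACS livers the values were 20.4 ± 1.81 and 11.5 ± 3.43. The level of Hist1h4i was 3.67 ± 0.986 CPM per kb in NCACS, above Hist2h2be at 1.62 ± 0.227, whereas in CACS it was 1.30 ± 0.482 against 1.25 ± 0.311, which did not differ beyond the spread. Hist2h3c2 came next in NCACS at 1.14 ± 0.293, within the summed SDs of Hist2h2be.

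**Figure D4:**
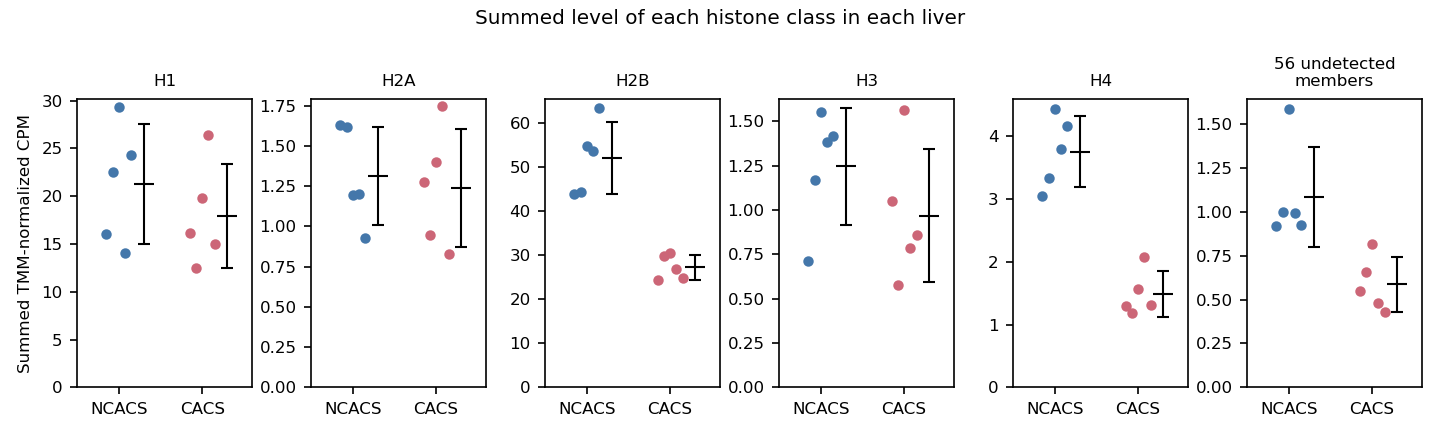
Summed TMM-normalized CPM of all members of each histone class, and of the 56 undetected members, in each NCACS (blue) and CACS (red) liver, with mean and SD in black and vertical axes from 0. The groups are apart for H2B, H4 and the undetected members and overlap for H1, H2A and H3.

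Summed over a class, H2B transcripts were 52.1 ± 8.17 CPM in NCACS and 27.3 ± 2.81 in CACS, a ratio of 0.523, and H4 transcripts were 3.75 ± 0.568 and 1.49 ± 0.361, a ratio of 0.397 (SD, n = 5 each). The ratio was 0.844 for H1, 0.942 for H2A and 0.776 for H3. No test was made on these sums. One gene made up most of each: Hist1h1c 99.3% of H1 counts, Hist2h3c2 92.4% of H3, Hist3h2a 90.2% of H2A, Hist1h2bc 89.1% of H2B and Hist1h4i 68.4% of H4. Without that gene the ratio was 0.748 for H2B, with overlapping groups, and 0.498 for H4, with groups still apart. For H1, H2A and H3 it was 0.363, 0.427 and 0.926, with overlapping groups, from sums of at most 0.452, 0.301 and 0.228 CPM in a liver. The H4 sum without Hist1h4i was also small, at 0.802 to 1.78 CPM in NCACS and 0.401 to 0.629 in CACS. Within it, Hist2h4 and Hist1h4h each overlapped between the groups.

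The 56 undetected members together had 30 to 49 counts in an NCACS liver and 15 to 25 in a CACS liver. Every CACS liver was below every NCACS liver in normalized units, with sums of 1.08 ± 0.282 and 0.586 ± 0.154 CPM (SD, n = 5 each). NCACS replicate 13 was the highest at 1.58 CPM. Hist1h4h alone held 65 of the 287 counts, and without it the groups overlapped. The sums of undetected members also overlapped between the groups within every class. Of the 33 genes with a read, 22 had more counts in NCACS, 9 in CACS and 2 equal counts, 183 against 104 in all. These were raw counts, and the direction was not counted over other genes with few counts. Most of these genes had fewer than 10 counts in total (23 of 33), so no single gene was compared.

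Promoters were matched by gene ID in RefSeq tables (GRCm38.p6, 250 bases before to 50 after the start) for 59 of 64 members; Hist1h2bc, Hist2h2be and Hist2h4 were among those without an entry. The CCAAT box, searched as CCAAT on both strands, is the site of the factor NF-Y. It was present in 6 of 6 H1, 18 of 18 H2A, 13 of 13 H2B and 10 of 10 H3 promoters but in 3 of 12 H4 promoters, against 37.9% of 27025 promoters. The octamer ATTTGCAT, a motif of Oct-1 known from H2B promoters, was present in 7 of 18 H2A and 4 of 13 H2B promoters and in none of the other classes, against 1.75% of all promoters. TATAAA, on either strand, was present in 1 of 5 detected and 34 of 54 undetected members with an entry, against 14.2%. Motifs were counted anywhere in a window, so TATAAA need not lie where a TATA box would. Near matches were not counted, and the windows of the detected members Hist1h1c and Hist3h2a hold the letters TATATA. Hist1h2be had 2 windows, and the one used lies at the exon upstream of its coding exon. Divergent H2A and H2B genes share much of their promoter, so these are not independent counts. Of the detected members with an entry, Hist1h4i had no CCAAT letters, and Hist1h1c, Hist3h2a, Hist1h2be and Hist2h3c2 had them.

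No factor that makes histone mRNA 3′ ends passed the test. In a list of 16 processing genes, 15 were tested and 0 passed the edgeR test (3 at an unadjusted p under 0.05, against 21.6% of all genes, and 1 with DESeq2), and their median log2 fold change was 0.04. Slbp, the stem-loop binding protein, was 8.80 ± 0.265 CPM in NCACS and 9.05 ± 0.674 in CACS. The processing genes with the smallest p were Srrt, which encodes the cap-complex partner ARS2 (log2 fold change 0.28, edgeR adjusted p = 0.0819), the cap-binding gene Ncbp1 (0.32, adjusted p = 0.134) and the nuclear poly(A)-binding gene Pabpn1 (0.23, adjusted p = 0.211). Among 9 genes of histone mRNA decay 0 passed (1 at an unadjusted p under 0.05, and 0 with DESeq2), with the smallest p for the uridylyltransferase gene Tut7 (-0.31, edgeR adjusted p = 0.224), the decapping gene Dcp2 (-0.23, 0.247) and the helicase gene Upf1 (0.27, 0.298).

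Replication-independent histones, most of which are made throughout the cell cycle from polyadenylated mRNAs, gave no call either. Of 11 genes 10 were tested and 0 passed the edgeR test (1 at an unadjusted p under 0.05, and 0 with DESeq2), with a median log2 fold change of 0.01. The centromeric H3 gene Cenpa (-0.45, edgeR adjusted p = 0.198), the linker histone gene H1f0 (0.16, 0.289) and the H2A.Z gene H2afv (-0.16, 0.306) had the smallest p. On the length-corrected scale H1f0 was at 65.8 CPM per kb over all livers, above Hist1h2bc. H3f3b, an H3.3 gene chosen after its values were seen, was at 39.0 CPM per kb, whereas the detected H3 member Hist2h3c2 was at 1.0. The level of Hist2h3c2 is uncertain because 61.6% of its windows were shared.

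**Figure D5:**
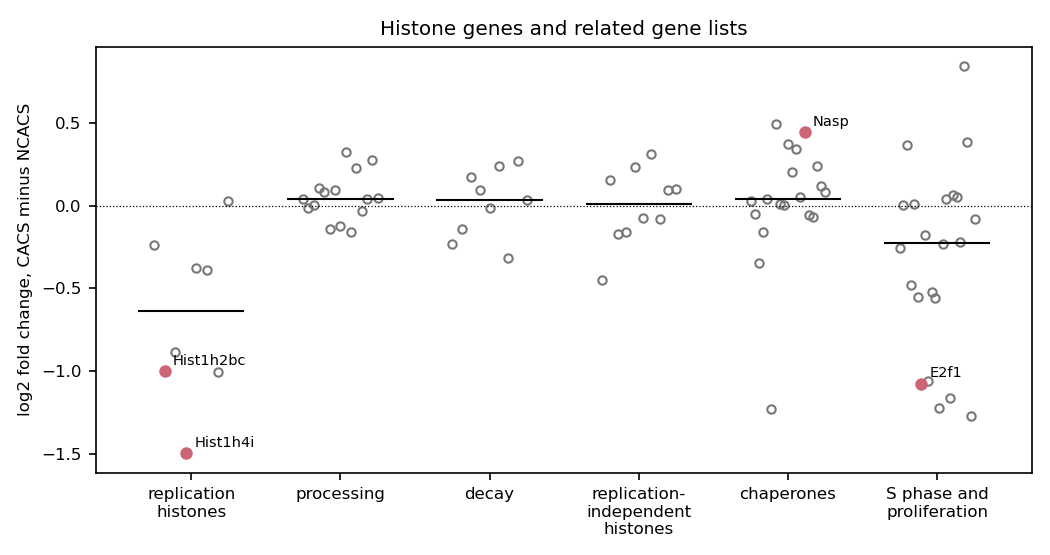
Log2 fold change of CACS over NCACS (vertical axis) for each tested gene of the replication histones and of 5 related lists, with filled red points for adjusted p under 0.05 and a line at each median. Hist1h2bc, Hist1h4i, Nasp and E2f1 are the genes past the threshold.

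Of 19 histone chaperone genes 1 passed the edgeR test, against 3.80% of all genes tested. There were 5 at an unadjusted p under 0.05 (4 higher and 1 lower in CACS), against 21.6% of all genes, and DESeq2 called 1. Nasp, whose product binds free histones, was higher in CACS, at 22.1 ± 1.89 against 16.3 ± 1.66 CPM (log2 fold change 0.44, edgeR adjusted p = 0.0347), and the groups did not overlap. The call was lost in every fit that left out 1 liver except that without CACS replicate 16, with adjusted p up to 0.0775. Next by p were the nucleosome assembly gene Nap1l1 (0.34, edgeR adjusted p = 0.0932) and Chaf1a, a subunit of the replication-coupled chaperone CAF-1 (-1.23, 0.122).

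In the list of S phase and proliferation, 22 of 24 genes were tested and 1 passed the edgeR test, against 3.80% of all genes tested. At an unadjusted p under 0.05 there were 6 (1 higher and 5 lower in CACS), against 21.6% of all genes, and DESeq2 called 4. E2f1, a transcription factor of the G1 to S transition, fell from 3.71 ± 1.07 to 1.76 ± 0.336 CPM (log2 fold change -1.07, edgeR adjusted p = 0.0298), with groups that did not overlap. Its call was lost without NCACS replicate 11, 12 or 13 or CACS replicate 16, 18 or 20, with adjusted p up to 0.0664. The helicase subunit genes Mcm2 (-1.06, edgeR adjusted p = 0.0641) and Mcm4 (-0.56, 0.0886) came next. The list had 14 genes below 0 and 8 above, and a median of -0.23. Mki67, a marker of cycling cells chosen after its values were seen, was 2.24 ± 1.34 CPM in NCACS and 0.997 ± 0.611 in CACS (edgeR adjusted p = 0.235).

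Of the cell type markers tested, Cd5l and Hnf4a passed, and the summed levels of each list overlapped between the groups. All 6 macrophage markers had a log2 fold change below 0, Cd5l passed (edgeR adjusted p = 0.0374), and the summed level was 166 to 280 CPM in NCACS and 98.7 to 199 in CACS. The 5 tested lymphocyte markers of 7 were all below 0, none passed, and the sum was 8.98 to 20.3 CPM in NCACS and 6.08 to 12.8 in CACS. Of 6 hepatocyte markers 5 were above 0 and Hnf4a passed (edgeR adjusted p = 0.0435), with sums of 62743 to 111995 CPM in NCACS and 103719 to 130148 in CACS. The 2 tested neutrophil markers of 6 were both below 0 (median log2 fold change -1.72), and neither passed. Neutrophil markers summed to 1.29 to 12.1 CPM in NCACS and 1.10 to 2.57 in CACS. Ly6g was at 0 in most livers, and Mpo, Elane and Camp were at 0 in some. At an unadjusted edgeR p under 0.05, 3 macrophage, 3 lymphocyte, 2 neutrophil, 1 stellate and 1 cholangiocyte markers were lower in CACS. At that level 2 hepatocyte markers were higher, and 21.6% of all genes passed in either direction. No marker of the other 4 lists passed. Cholangiocyte markers had 3 of 4 below 0 (median log2 fold change -0.57, sums of 4.97 to 10.8 CPM in NCACS and 3.29 to 7.26 in CACS). Endothelial markers had 3 of 4 above 0 (median 0.27, 52.0 to 85.1 and 78.6 to 96.4 CPM), stellate markers 3 of 4 above 0 (median 0.06, 118 to 183 and 138 to 223 CPM), and the 4 tested erythroid markers of 5 were 2 above and 2 below (median -0.04, 94.0 to 282 and 151 to 222 CPM). The part of these differences in the histone values was not tested. In whole liver, fewer cells of a type and less RNA per cell cannot be told apart.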

How the data were processed

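Livers of 5 NCACS and 5 CACS mice were measured by poly(A)-selected, stranded RNA-seq. The authors deposited raw counts per gene, which they made with STAR 2.4.1d on GRCm38 and HTSeq 0.6.1; the annotation release and the HTSeq strand setting were not given in the sources used here. Symbols, gene types and exons were taken from GENCODE M21, and 1081 of the 43629 gene IDs had no entry in it. The second engineered allele of the mice is not reported here. The members and lists were chosen with earlier results of these data known. Counts were filtered with filterByExpr, scaled by TMM and tested in edgeR 4.0.16 (quasi-likelihood, Benjamini-Hochberg over 14143 genes, threshold 0.05) in R 4.3.3, after a check on simulated counts. With 200 genes changed by a factor of 4 in that check, 7.14% of edgeR calls and 16.44% of DESeq2 calls were false. CPM used TMM-scaled library sizes, and intervals are 95% from the fit. DESeq2 1.42.0, limma-voom 3.58.1, other scalings and filters, a threshold of 0.01 and leaving out each liver were alternatives. Libraries held 31945328 to 38306888 counts in NCACS and 31459179 to 40746178 in CACS. Limits for members at 0 cover counting error only. Each library is 1 mouse, and no pair of libraries within a group agreed within sampling noise (lowest chi-square per degree of freedom 50.1). The labels give no batch, although the study's methods name a batch correction; a batch effect was not tested.

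Values in every liver are given for members past the threshold and, in each class, for the member with the highest level per length and that with the largest fold change; in each list the genes past the threshold and the 3 with the smallest p are named. The stem-loop, poly(A) signal and promoter motifs were searched by their letters. A shared window is a run of 100 bases found exactly in a transcript of another gene.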

Additional observations from a re-analysis of the deposited data

Results flagged for a closer look

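The summed level of the 56 undetected members in NCACS was set apart by 1 liver. NCACS replicate 13 had 1.58 CPM and the next liver 0.995 CPM, a gap of 0.886 of the group's range, above the Dixon limit of 0.71 for 5 samples.

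Ncbp1, the cap-binding gene of the processing list, had 1 distant liver in CACS. CACS replicate 20 had 36.2 CPM and the next liver 27.4 CPM, a gap of 0.774 of the range. These are 2 of 58 combinations of a value and a group that were examined, and chance alone gives about 1 in 20.

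A pseudogene outside the members had reads in every liver. Hist1h2al, annotated as a pseudogene on chromosome 13 (51202727 to 51203065, minus strand), had at least 35 and up to 204 counts in a liver, more than most of the detected members. It had 3.59 ± 1.93 CPM in NCACS and 2.43 ± 1.6 in CACS (SD, n = 5 each), with a log2 fold change of -0.57 (edgeR adjusted p = 0.512).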

How the results depend on the processing

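No paired analysis was possible because mice of the 2 groups were numbered apart. Both members past the threshold kept their direction in all alternatives. Hist1h2bc also kept its call in all of them (log2 fold change -1.06 to -0.91), and Hist1h4i lost it without CACS replicate 16 and at a threshold of 0.01 (value -1.49), so the count of members past the threshold was 1 to 2 with 1 liver left out and 1 at 0.01. Hist3h2a turned sign with limma-voom (-0.028) and ran from -0.16 to 0.15 with 1 liver left out, without passing the test. A minimum of 10 counts in every liver removed Hist1h2be and Hist2h4, and DESeq2 gave Hist1h2be no adjusted p. Over all genes, 538 passed (267 higher, 271 lower). DESeq2 called 1386 (672 higher, 714 lower), no filter gave 173 higher, a threshold of 0.01 left 34 (14 higher, 20 lower), and leaving out 1 liver gave 178 to 519 (79 to 246 higher, 96 to 273 lower); CACS replicates 17 and 18 were the only livers whose removal kept the total within 1.5 times. For the lists, DESeq2 called 1 processing gene (Srrt) and 4 S-phase genes, Mcm2 and Mcm4 among them. The chaperone count was 0 with raw library totals, without a filter and at 0.01, the S-phase count was 0 at 0.01, and both were 0 to 1 with 1 liver left out. With 1 or more counts in 5 livers as the rule, 21 members were detected. Counting any gene type gave 9, the pseudogene Hist1h2al being the addition. Without its most abundant member the ratio of a class sum was 0.363 for H1, 0.427 for H2A, 0.748 for H2B, 0.926 for H3 and 0.498 for H4. The median log2 fold change of all genes was -0.013 with RLE factors, -0.014 with upper-quartile factors and 0.0079 with raw totals. The cause of these changes was not tested. With fewer than 25 counts per liver Hist1h2be gives wide intervals, and no single undetected member can be compared at this depth.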
